A study of Mus musculus with 4 samples.

Results

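Mitochondrial carriers, protein import machinery and mitochondrial dynamics genes were examined in the tissues that surround the femoral artery (FA) of mice, mainly perivascular adipose tissue (PVAT), after vascular injury. The genes were taken by name, as every symbol that begins with Slc25a, Tomm or Timm, or with Chchd and a number, together with *Mfn1*, *Mfn2*, *Opa1*, *Dnm1l*, *Fis1*, *Immt*, *Phb* and *Phb2*. This gave 76 of the 12661 genes in the deposited table: 35 Slc25a genes, 11 Tomm genes, 14 Timm genes, 8 Chchd genes and the 8 genes listed by full name. The rule itself uses names and no measured value. The samples were bulk RNA-seq libraries from wild type C57BL/6 female mice, 11 weeks old, 2 from mice whose FA had been injured by insertion of a wire and 2 from mice given a sham operation, all collected 48 h later. Mice of both groups were ovariectomized, so no library came from an intact female. The labels number the libraries of a group without saying whether they came from separate animals, so the p-values measure only the spread between these libraries. In whole tissue, fewer cells of a type and less RNA per cell cannot be told apart.

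Most proteins of a mitochondrion are encoded in the nucleus and made in the cytosol. The TOM complex passes them through the outer membrane, and the TIM23 and TIM22 complexes then sort them into the matrix or the inner membrane, helped by small Tim chaperones between the membranes. Among the proteins inserted by TIM22 are the SLC25 carriers, which exchange nucleotides, fuels, amino acids, cofactors, iron and phosphate across the inner membrane. Mitofusins and OPA1 fuse mitochondria, the dynamin DNM1L divides them, and the inner membrane folds into cristae held by IMMT and the prohibitins. Brown and beige adipocytes, the cells that the study asked about in PVAT, burn fuel for heat and are rich in mitochondria.

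Each deposited value is a signed number on a log-like scale whose centre is set gene by gene and is not the mean of these libraries. A value is therefore read only against the same gene in the other libraries, and levels cannot be compared between genes. The base of the scale is not known, which is why differences stay in the units of the table, called deposited units, and are not turned into folds. Read depth is unknown, so no value carries a counting interval.

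The injury libraries held higher values than the sham libraries for most of the 76 genes. The median value over the 76 genes was -0.14 and -0.08 in the sham libraries and 0.21 and 0.20 in the injury libraries. The median of the 76 differences, injury minus sham, was 0.33, against 0.01 over all genes tested. The mean was higher after injury for 60 of the 76 genes (78.9%), against 50.9% of all genes. Both injury libraries lay above both sham libraries for 52 genes (68.4%, against 31.6% of all genes), both lay below for 10 genes (13.2%, against 30.3% of all genes), and for 14 genes the groups overlapped. These shares of all genes are the background for every count of this kind given for a class of genes.

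Few of these differences passed the test for a single gene. With limma and an adjusted p under 0.05, 5 of the 76 genes rose and 0 fell, and 37 had an unadjusted p under 0.05 (against 29.5% of all genes). The same test called 7.43% of all genes, 3.76% higher and 3.67% lower. The share of these genes that rose, 6.58%, is not read as particular to them. At an adjusted p under 0.1 the count was 21 genes higher (27.6%, against 9.21% of all genes) and 1 lower (against 9.09%). Among the genes that rose were *Slc25a42*, *Chchd2*, *Slc25a37* and *Slc25a39*. None of the 76 genes was called when either sham library was left out, a setting in which 0 or 1 of all genes was called by limma (1960 and 2553 genes at an unadjusted p under 0.05). With the replicate number as a block, 2 of the 76 genes were called, *Slc25a42* among them, against 5.4% of all genes in either direction and 3.01% higher.

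**Figure D1:**
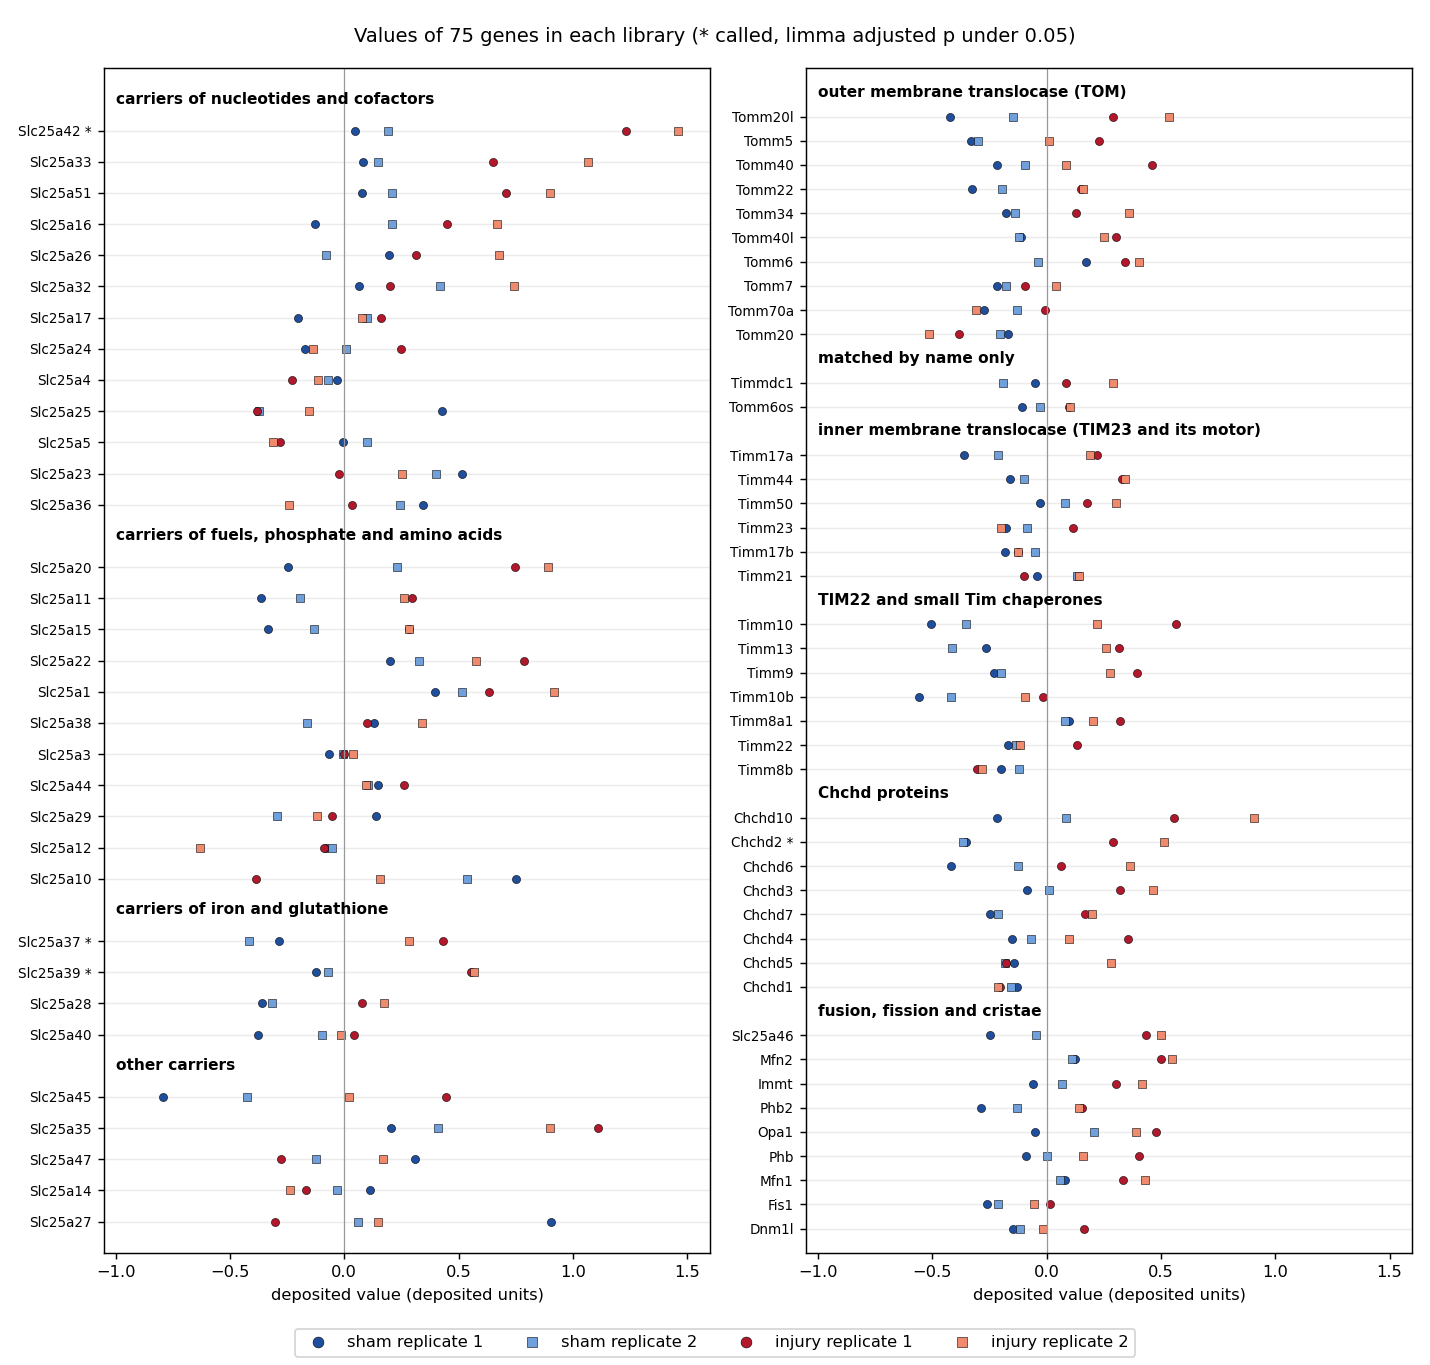
Deposited value (deposited units, horizontal axis) of each of 75 genes in the 2 sham libraries (blue) and the 2 injury libraries (red), ordered by role and, within a role, by the difference, with an asterisk at the 4 genes called by limma. The red points lie to the right of both blue points for 51 of the genes drawn and to the left of both for 10.

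The carriers of nucleotides and cofactors ranged widely. Of 14 such genes, 2 rose (all genes, 3.76%). Both injury libraries were above both sham libraries for 6 (42.9%, against 31.6% of all genes) and below for 4 (28.6%, against 30.3% of all genes). The median difference of the 14 was 0.20. That median was 0.079 without sham replicate 1, 0.31 without sham replicate 2 and 0.32 without injury replicate 1.

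*Slc25a42* encodes a carrier that exchanges coenzyme A for adenine nucleotides. It was at 0.05 and 0.19 in the sham libraries and at 1.23 and 1.46 in the injury libraries. The gap between the groups was several times the gap within either of them. The difference was 1.23 (SE 0.15, limma adjusted p 0.0285, range over the alternative settings 0.0186 to 0.176), and this was the only one of the 76 genes called without injury replicate 1. The gene (ENSMUSG00000002346.9) is at chr8:72708239-72736204 in mm9.

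The carriers *Slc25a33*, *Slc25a36* and *Slc25a51* of this class stayed short of the threshold. *Slc25a33*, a pyrimidine nucleotide carrier, was at 0.08 and 0.15 in the sham libraries and at 0.65 and 1.07 in the injury libraries. The groups did not overlap, and the difference was 0.75 (SE 0.18, limma adjusted p 0.0666). *Slc25a36*, the other pyrimidine nucleotide carrier, was at 0.34 and 0.24 after sham operation and at 0.04 and -0.24 after injury, both injury libraries being lower. Its difference was -0.40 (SE 0.16, limma adjusted p 0.168), and -0.26 without injury replicate 2. *Slc25a51*, which carries NAD, had a difference of 0.66 (limma adjusted p 0.0577).

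The ADP/ATP carriers, which export the ATP made by oxidative phosphorylation, had lower values after injury, none of them past the threshold. *Slc25a5* was at -0.01 and 0.10 in the sham libraries and at -0.28 and -0.31 in the injury libraries. Both injury libraries were lower, by 0.34 on average (difference -0.34, SE 0.13, limma adjusted p 0.165). *Slc25a4*, the form that prevails in muscle and heart, differed by -0.12 (limma adjusted p 0.593). Among the calcium-regulated carriers of ATP-Mg and phosphate, *Slc25a23* was at 0.52 and 0.40 in the sham libraries and at -0.02 and 0.25 in the injury libraries (difference -0.34, SE 0.16, limma adjusted p 0.219, and -0.20 without injury replicate 1). *Slc25a25* was at 0.43 and -0.37 in the sham libraries and at -0.38 and -0.15 in the injury libraries. Sham replicate 1 alone stood high there, and the difference of -0.29 (SE 0.28, limma adjusted p 0.537; -0.18 without injury replicate 1) became 0.11 without it and -0.69 without sham replicate 2. The third of this group, *Slc25a24*, differed by 0.14.

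Of 11 carriers of fuels, phosphate and amino acids, none was called by limma and 5 had an unadjusted p under 0.05 (all genes, 29.5%). Both injury libraries were above both sham libraries for 6 (all genes, 31.6%) and below for 2 (all genes, 30.3%), with a median difference of 0.24 (0.091 without sham replicate 2 and 0.14 without injury replicate 2). *Slc25a20* encodes the carnitine-acylcarnitine carrier, which delivers long-chain fatty acids for oxidation. It was at -0.24 and 0.23 in the sham libraries and at 0.75 and 0.89 in the injury libraries. The groups did not overlap, though the sham libraries differed by almost as much as the gap between the groups, and the difference was 0.82 (SE 0.20, limma adjusted p 0.0659). The oxoglutarate carrier *Slc25a11*, part of the malate-aspartate shuttle, differed by 0.56 (limma adjusted p 0.0711) and the ornithine carrier *Slc25a15* by 0.52 (limma adjusted p 0.0863).

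*Slc25a10*, the dicarboxylate carrier, had the lowest difference of the 76 genes. It was at 0.75 and 0.54 in the sham libraries and at -0.39 and 0.16 in the injury libraries. Both injury libraries were lower, injury replicate 1 much more so than injury replicate 2. The difference was -0.76 (SE 0.22, limma adjusted p 0.0922), and without injury replicate 2 it was -1.03 with a limma adjusted p of 0.0257. Without injury replicate 1 it was -0.49 (limma adjusted p 0.197), and the adjusted p ranged from 0.0257 to 0.385 over the alternative settings. *Slc25a12*, an aspartate-glutamate carrier, was at -0.08 and -0.05 in the sham libraries and at -0.09 and -0.63 in the injury libraries, so that only injury replicate 2 stood clearly apart (difference -0.29, SE 0.21, limma adjusted p 0.405, -0.022 without it and -0.56 without injury replicate 1). *Slc25a3*, the phosphate carrier needed for ATP synthesis, differed by 0.05, and *Slc25a1*, the citrate carrier that feeds fatty acid synthesis, by 0.32 (limma adjusted p 0.249).

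All 4 carriers of iron and glutathione had both injury libraries above both sham libraries (all genes, 31.6%), and 2 of them rose (all genes, 3.76%); their median difference was 0.56. *Slc25a37* encodes mitoferrin-1, which imports iron for heme and iron-sulfur clusters and is best known from red cell precursors. Its values were -0.29 and -0.41 in the sham libraries and 0.43 and 0.28 in the injury libraries, with both injury values above both sham values. The difference was 0.71 (SE 0.14, limma adjusted p 0.0481, range 0.0410 to 0.223). The gene (ENSMUSG00000034248.6) is at chr14:69859908-69903160 in mm9. *Slc25a28*, which encodes mitoferrin-2, was at -0.36 and -0.32 in the sham libraries and at 0.08 and 0.17 in the injury libraries (difference 0.47, limma adjusted p 0.0921).

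*Slc25a39* encodes a carrier required for glutathione import into mitochondria. It was at -0.12 and -0.07 in the sham libraries and at 0.55 and 0.57 in the injury libraries. Both groups were tight and well apart. The difference was 0.66 (SE 0.13, limma adjusted p 0.0468, range 0.0452 to 0.260), and the gene (ENSMUSG00000018677.3) is at chr11:102264299-102269260 in mm9. Its relative *Slc25a40* differed by 0.25 (limma adjusted p 0.338). The call of *Slc25a39* was lost without any 1 of the 4 libraries, and that of *Slc25a37* without either sham library or injury replicate 1.

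Among 5 other carriers, whose substrates are less settled or which are named for their likeness to uncoupling proteins, 2 had both injury libraries higher and 1 had both lower, few genes and shares not far from those of all genes (31.6% and 30.3%). Their median difference, -0.14, was 0.07 without sham replicate 1 and 0.080 without injury replicate 1. *Slc25a45* was at -0.79 and -0.43 in the sham libraries and at 0.44 and 0.02 in the injury libraries. The groups were apart, and the difference was 0.84 (SE 0.21, limma adjusted p 0.0718; without injury replicate 2, 1.05 with adjusted p 0.0364, and over all alternative settings 0.0364 to 0.339). *Slc25a35* differed by 0.70 (limma adjusted p 0.0581), but its gene overlaps *Rangrf* on the other strand. *Slc25a27* was at 0.90 and 0.06 in the sham libraries and at -0.30 and 0.15 in the injury libraries. Its groups overlapped, sham replicate 1 alone being high (difference -0.56, SE 0.32, limma adjusted p 0.304, -0.14 without it, -0.98 without sham replicate 2 and -0.33 without injury replicate 1).

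**Figure D2:**
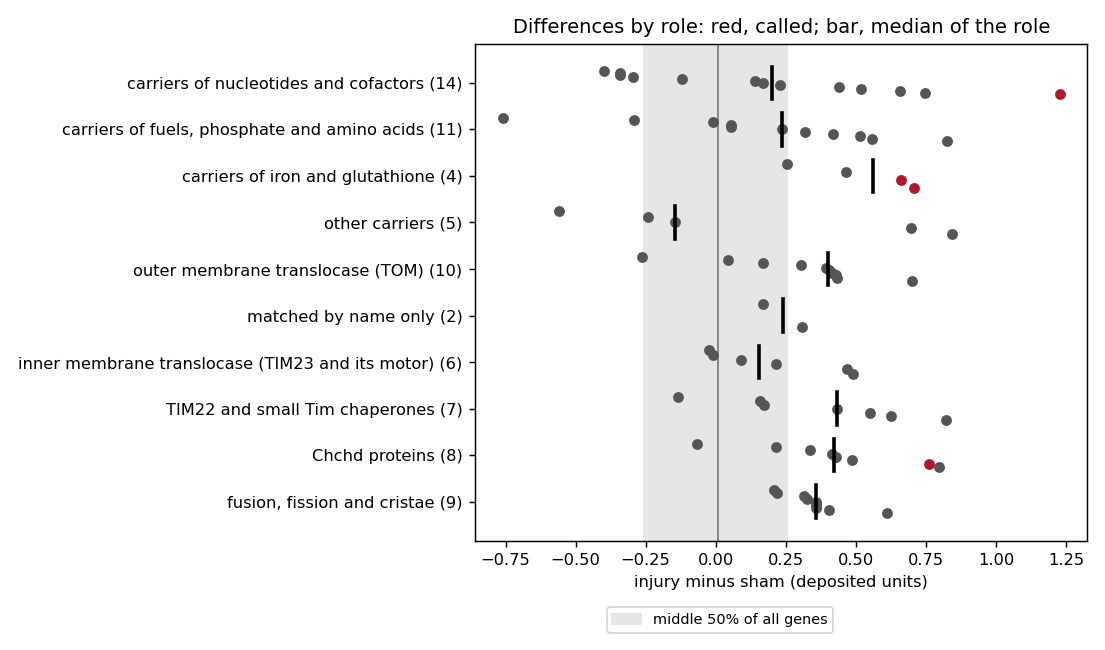
Difference between the injury and sham means (deposited units, horizontal axis) of 75 genes, by role with the number of genes in brackets; red points are called by limma, bars are medians over all genes of the role, 1 of them not drawn, and the grey band holds the middle 50% of all genes. Medians run from -0.14 for the other carriers, which changes sign without sham replicate 1 or injury replicate 1, to 0.56 for the carriers of iron and glutathione, and every gene of fusion, fission and cristae lies above 0.

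Most genes of the outer membrane translocase had higher values after injury, none past the threshold. Of 10 genes grouped with TOM, 8 had both injury libraries above both sham libraries (all genes, 31.6%) and 1 had both below (all genes, 30.3%). The median difference of the 10 was 0.40. *Tomm34*, grouped here although its protein is not a subunit of the translocase, was among the 8 (difference 0.40). None of the 10 was called by limma, and 5 had an unadjusted p under 0.05 (all genes, 29.5%). *Tomm40*, the channel itself, was at -0.22 and -0.10 in the sham libraries and at 0.46 and 0.09 in the injury libraries (difference 0.43, limma adjusted p 0.178). *Tomm22*, the central receptor, was at -0.33 and -0.19 in the sham libraries and at 0.15 and 0.16 in the injury libraries (difference 0.41, limma adjusted p 0.120). Small subunits *Tomm5*, *Tomm6* and *Tomm7* differed by 0.43, 0.31 and 0.17.

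Among the receptor genes, *Tomm20* and *Tomm70a* did not have both injury libraries higher. *Tomm20*, a presequence receptor, was at -0.17 and -0.20 in the sham libraries and at -0.38 and -0.51 in the injury libraries. It was the TOM gene with both injury libraries lower, with a difference of -0.26 (SE 0.14, limma adjusted p 0.268). *Tomm70a*, the receptor for carrier precursors, was at -0.27 and -0.13 in the sham libraries and at -0.01 and -0.31 in the injury libraries, and its groups overlapped. *Tomm20l*, a relative of *Tomm20*, had the highest TOM difference, 0.70 (limma adjusted p 0.0676). It overlaps *Timm9* on the other strand by a short stretch.

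In the TIM23 translocase of the inner membrane and its motor, 3 of 6 genes had both injury libraries higher (all genes, 31.6%). The rest overlapped, and the median difference of the 6 was 0.15. By limma none of the 6 was called, and 2 had an unadjusted p under 0.05 (all genes, 29.5%). *Timm17a*, a channel subunit, was at -0.36 and -0.21 in the sham libraries and at 0.22 and 0.19 in the injury libraries (difference 0.49, limma adjusted p 0.0891). *Timm44*, which ties the motor to the channel, differed by 0.47 (limma adjusted p 0.0885). The channel gene *Timm23* differed by 0.09 and *Timm17b* by -0.01.

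The small Tim chaperones, which escort carrier precursors across the space between the membranes, had higher values after injury in most cases. Of 7 genes of the TIM22 route, 6 had both injury libraries above both sham libraries (all genes, 31.6%) and 1 had both below (all genes, 30.3%). The median difference of the 7 was 0.43. By limma none of the 7 was called, and 4 had an unadjusted p under 0.05 (all genes, 29.5%). *Timm10* was at -0.50 and -0.35 in the sham libraries and at 0.57 and 0.22 in the injury libraries. Both injury values were above both sham values, with a difference of 0.82 (SE 0.17, limma adjusted p 0.0518), just over the threshold. It passed under quantile normalization (limma adjusted p 0.0426), with libraries set to equal spread (0.0400) and with a trended variance prior (0.0440). It did not pass with the replicate block (limma adjusted p 0.0754), a robust variance prior (0.0536) or identical genes counted once (0.0517). With 1 library left out the difference of *Timm10* was 0.65 to 0.99, and it passed only without injury replicate 2. Its partner *Timm9* was at -0.23 and -0.20 in the sham libraries and at 0.40 and 0.28 in the injury libraries (difference 0.55, limma adjusted p 0.0682). *Timm13* differed by 0.63 (limma adjusted p 0.0555), while *Timm8b* differed by -0.13 and *Timm22*, the channel, by 0.16.

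The Chchd genes encode small proteins with paired cysteines, most of them held between the mitochondrial membranes. Of 8, 1 rose (all genes, 3.76%), 6 had both injury libraries higher (all genes, 31.6%), 1 had both lower (all genes, 30.3%) and the median difference was 0.42. *Chchd2* encodes a protein of the intermembrane space that also acts on transcription of a respiratory chain subunit. Its values were -0.35 and -0.37 in the sham libraries and 0.29 and 0.52 in the injury libraries. The sham libraries nearly coincided and both injury libraries were higher. The difference was 0.76 (SE 0.15, limma adjusted p 0.0448, range 0.0379 to 0.238), and the call was lost without any 1 of the 4 libraries. The gene (ENSMUSG00000070493.3) is at chr5:130357027-130363340 in mm9 and overlaps *Phkg1* in the annotation, so reads may be shared.

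*Chchd10*, the paralogue of *Chchd2*, was at -0.22 and 0.09 in the sham libraries and at 0.56 and 0.91 in the injury libraries. The groups did not overlap, and the difference was 0.80 (SE 0.19, limma adjusted p 0.0652); the gene overlaps *Mmp11* and *Gm867* on the other strand. *Chchd3* and *Chchd6*, subunits of the complex that shapes cristae, differed by 0.43 and 0.48. *Chchd4*, the oxidoreductase that folds proteins with paired cysteines as they arrive, differed by 0.34, and *Chchd1*, a mitochondrial ribosome protein, by -0.07.

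**Figure D3:**
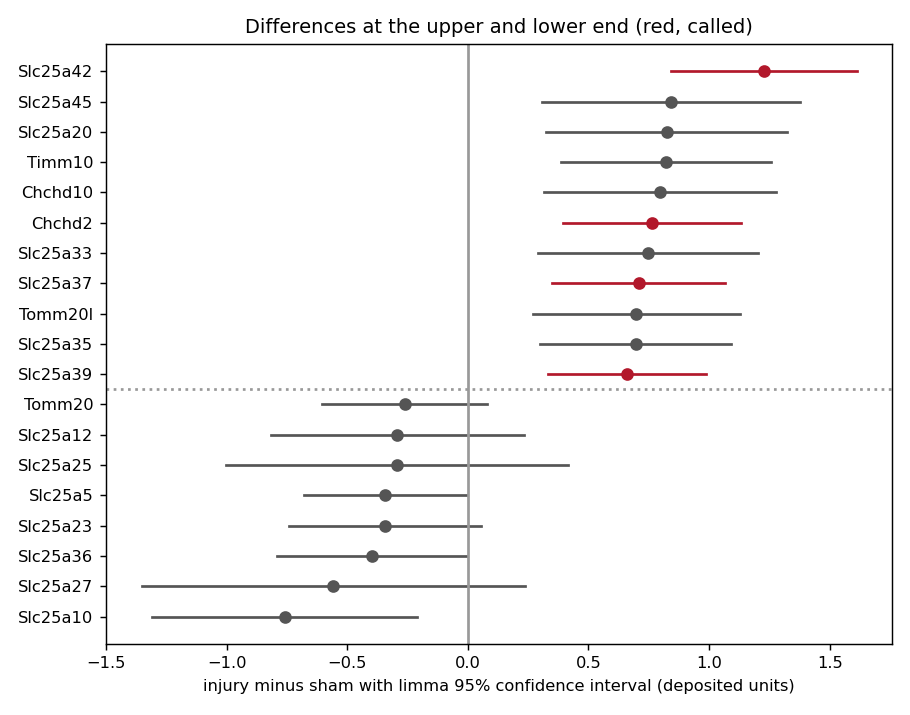
Injury minus sham (deposited units, horizontal axis) for 11 genes at the upper end and 8 at the lower end of the differences; points are limma estimates, lines their 95% confidence intervals, and red marks genes called. *Slc25a42* (1.23) lies apart from the others drawn, which reach 0.84 at most, and *Slc25a10* is lowest (-0.76).

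All 9 genes of fusion, fission and cristae had both injury libraries above both sham libraries (all genes, 31.6%), with differences from 0.21 to 0.61. None of the 9 was called by limma, and 4 had an unadjusted p under 0.05 (all genes, 29.5%). *Mfn2*, a mitofusin of the outer membrane, was at 0.13 and 0.11 in the sham libraries and at 0.50 and 0.55 in the injury libraries (difference 0.41, limma adjusted p 0.116). *Mfn1*, the other mitofusin, was at 0.08 and 0.06 in the sham libraries and at 0.33 and 0.43 in the injury libraries (difference 0.31, limma adjusted p 0.191). *Opa1*, which fuses inner membranes, was at -0.05 and 0.21 in the sham libraries and at 0.48 and 0.39 in the injury libraries (difference 0.36, limma adjusted p 0.196).

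The fission genes had the lowest differences in this class. *Dnm1l* differed by 0.21 (limma adjusted p 0.384) and *Fis1*, an outer membrane protein linked to fission, by 0.22 (limma adjusted p 0.336). *Immt*, the core of the cristae junction complex, and the prohibitins *Phb2* and *Phb*, which form rings in the inner membrane, differed by 0.36, 0.36 and 0.33. *Slc25a46*, an outer membrane relative of the carriers with a role in dynamics, was highest at 0.61 (values -0.25 and -0.05 against 0.43 and 0.50, limma adjusted p 0.0628). Whether fusion and fission genes differed in their response was not tested.

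Paralogues were compared within each library, so that whatever shifts all genes of a library alike cancels. Of 15 pairs, 9 had no overlap between the groups, a share near that of single genes (31.6% of all genes higher and 30.3% lower), so it is not a result about the pairs. With 2 against 2 libraries the exact two-sided permutation test cannot go below 0.33, which was the smallest p found (0.556 after Benjamini-Hochberg adjustment over the 15 pairs). *Slc25a36* minus *Slc25a33* was 0.26 and 0.10 in the sham libraries and -0.62 and -1.31 in the injury libraries. This was the widest shift among the pairs, -1.14, and the point where such a difference is 0 has no meaning of its own. *Timm17b* minus *Timm17a* was 0.18 and 0.16 after sham operation and -0.35 and -0.31 after injury. The values lay close together within each group. *Slc25a5* minus *Slc25a4* went from 0.02 and 0.17 to -0.05 and -0.20. *Mfn2* minus *Mfn1* changed little, from 0.05 and 0.05 to 0.17 and 0.12, although the groups did not overlap. *Chchd10* minus *Chchd2* and *Phb2* minus *Phb* overlapped.

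**Figure D4:**
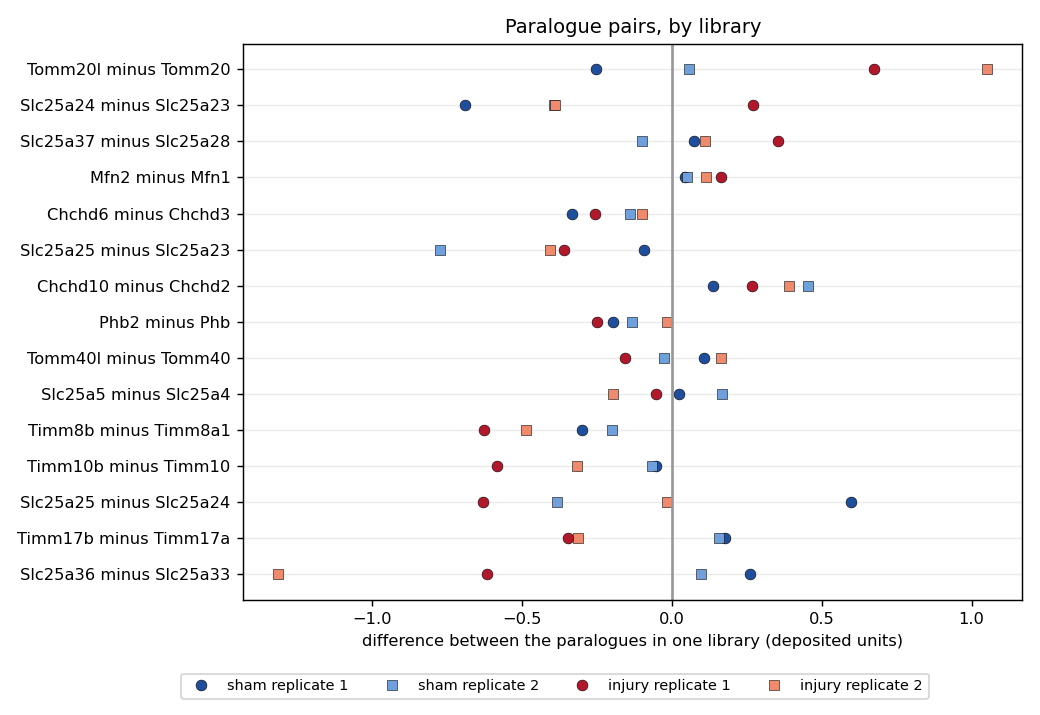
Difference between 2 paralogues (deposited units, horizontal axis) in each sham library (blue) and injury library (red), for 15 pairs ordered by the change after injury. *Slc25a36* minus *Slc25a33* has the lowest value in injury replicate 2 (-1.31) and *Tomm20l* minus *Tomm20* highest at 1.05.

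Promoter letters were read from RefSeq (GRCm38.p6) for 62 of the 76 genes, as windows of 250 bases before to 50 after each start, on both strands. The core letters of the ETS family, which includes GABP, a regulator of nuclear genes for mitochondrial proteins, were CCGGAAG. They occurred in 21 of the 62 genes (33.9%), against 19.7% of 9586 genes of the table with a window. Counted by promoter, since a gene can have several, they occurred in 23 of 76 (30.3%), against 8.86% of all 32851 promoters, a background that also holds genes outside the table. The other letters searched were AAGGTCA (ERR, 4 of the 62 genes, against 3.89% of table genes), CGCATGCG (NRF-1, 3.23% against 4.29%), TGACGTCA (CREB, 3.23% against 3.54%) and AAGATGGC (YY1, 3.23% against 5.23%). Median GC content of the windows was 59.5% for these genes and 60.7% for table genes. The 21 genes with CCGGAAG had a median difference of 0.24 and included 0 called by limma, and the 41 without it had 0.34 and 2 called. Of the 5 genes called, only these 2 had a window, so the called counts are not a contrast by letters. A match is a run of letters and not a tested site.

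The windows below are the 100 bases before the start, written 5′ to 3′ on the strand of the gene. They come from some of the classes described: a receptor of the channel, a carrier, a chaperone, and fusion proteins of the outer and inner membrane. The last is a called carrier with none of these letters. Capitals mark the match, which is CCGGAAG or its reverse complement except in *Opa1*, where it is CGCATGCG; in *Tomm22* a match on each strand overlaps the other. They are at chr15:79670768-79670867 (*Tomm22*, plus strand), chr9:108662036-108662135 (*Slc25a20*, plus), chr2:84826921-84827020 (*Timm10*, plus), chr3:32529382-32529481 (*Mfn1*, plus), chr16:29579234-29579333 (*Opa1*, plus) and chr8:70212282-70212381 (*Slc25a42*, minus).
Tomm22: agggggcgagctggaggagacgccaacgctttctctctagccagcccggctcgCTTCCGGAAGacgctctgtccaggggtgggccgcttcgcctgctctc
Slc25a20: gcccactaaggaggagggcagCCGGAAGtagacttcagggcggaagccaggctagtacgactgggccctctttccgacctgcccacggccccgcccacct
Timm10: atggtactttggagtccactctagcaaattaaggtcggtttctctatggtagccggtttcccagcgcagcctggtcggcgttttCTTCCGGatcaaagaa
Mfn1: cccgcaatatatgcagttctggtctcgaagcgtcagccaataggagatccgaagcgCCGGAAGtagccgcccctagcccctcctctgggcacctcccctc
Opa1: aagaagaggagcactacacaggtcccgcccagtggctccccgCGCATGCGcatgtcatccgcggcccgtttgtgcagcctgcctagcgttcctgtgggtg
Slc25a42: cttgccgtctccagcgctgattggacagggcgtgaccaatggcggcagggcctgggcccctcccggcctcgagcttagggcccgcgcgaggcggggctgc

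Other genes of the same pathways, 89 in all and listed by function, were described in the same way. Of these, 5 rose and 0 fell by limma, 48 had both injury libraries higher (53.9%) and 16 both lower, and the median difference was 0.19. Over all genes 3.76% were called higher, 31.6% had both injury libraries higher and 30.3% both lower, and the median was 0.01. Among 19 genes of the matrix motor, peptidases and chaperones, *Hspa9*, the motor chaperone that pulls precursors in, *Hspd1* and *Hspe1*, which fold them, rose by 0.81, 0.86 and 0.71 (limma adjusted p 0.0383, 0.0442 and 0.0481), against a list median of 0.17. All 6 genes of outer membrane insertion had both injury libraries higher (median 0.50). By limma none of the 6 was called, and 5 had an unadjusted p under 0.05 (all genes, 29.5%). *Samm50*, which inserts barrel proteins, differed by 0.52 (limma adjusted p 0.0731).

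*Mtfp1*, an inner membrane protein linked to fission, had the largest difference among the 5 that rose. It was at -0.03 and 0.11 in the sham libraries and at 1.19 and 1.30 in the injury libraries, far apart, with a difference of 1.21 (limma adjusted p 0.0285). It was the 1 gene called among 25 regulators of fusion, fission and cristae, of which 13 had both injury libraries higher and 6 both lower (all genes, 3.76% called higher, 31.6% and 30.3%). *Trak2*, a motor adaptor for mitochondrial transport, was among the latter (difference -0.53, limma adjusted p 0.103). None of 7 mitophagy genes had both injury libraries higher and 3 had both lower (all genes, 31.6% and 30.3%; median -0.10).

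Uncoupling proteins belong to the same carrier family under other names. *Ucp1*, the heat-producing uncoupler of brown fat, was at 0.97 and 2.76 in the sham libraries and at 3.82 and 3.02 in the injury libraries. The groups did not overlap, but the sham libraries differed from each other by more than the group means did, and the difference of 1.55 (SE 0.61) had a limma adjusted p of 0.164. *Ucp2*, found in many cells including macrophages, was at -0.72 and -0.61 in the sham libraries and at 0.33 and 0.24 in the injury libraries, and rose by 0.95 (limma adjusted p 0.0294). *Ucp3* differed by 0.82 (limma adjusted p 0.0756).

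Cell type markers moved between the groups as well, and their part in the results above was not tested. By limma, 3.76% of all genes were called higher and 3.67% lower. Of 7 brown adipocyte markers 5 rose, with sums over the list of 5.07 and 6.90 for the sham libraries and 14.1 and 13.2 in the injury libraries. Of 7 macrophage markers 4 rose (sums -8.26 and -7.81 against 3.57 and -0.50), and of 5 neutrophil markers 1 rose (sums -7.10 and -4.94 against 6.99 and 0.70). All 4 smooth muscle markers fell (sums 6.96 and 4.29 against -6.01 and -1.10), 2 of 4 endothelial markers fell (3.09 and 3.43 against -0.89 and -0.79), and 1 of 4 Schwann cell markers fell. The labelled tissue was checked with 8 adipocyte markers, all of them in the table; *Plin1* fell and the others were not called (sums 1.74 and 2.69 against -0.77 and 2.62). Values centred by gene cannot show how abundant these markers were. Of 8 skeletal muscle markers 6 were analysed and none was called by limma, with 3 at an unadjusted p under 0.05 (all genes, 29.5%). But sham replicate 1 stood high for these markers (sum 4.29, against -1.33, -0.72 and -0.95 in the others).

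The sham libraries also differed from each other over the 76 genes. Sham replicate 2 lay above sham replicate 1 for 52 of them (68.4%, against 48.4% of all genes), with a median gap of 0.07. The injury libraries showed a median gap of 0.01, and injury replicate 2 was above injury replicate 1 for 41 genes. The median injury minus sham difference was 0.30 to 0.38 when any 1 library was left out.

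**Figure D5:**
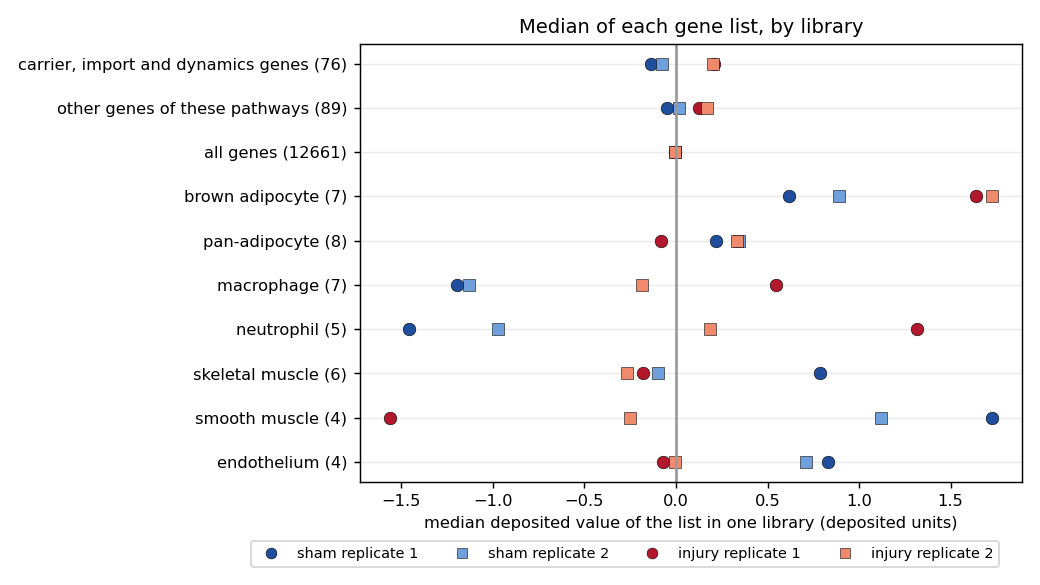
Median deposited value (deposited units, horizontal axis) of each gene list in each sham library (blue) and injury library (red), with the number of genes in brackets. The 76 genes shift from -0.14 and -0.08 to 0.21 and 0.20, all genes stay at about 0, and the macrophage, neutrophil and smooth muscle markers shift much further.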

How the data were processed

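The authors made each library with a kit for stranded mRNA libraries, starting from 480 ng of RNA, and read it as 150 bp pairs. By the submitters' processing notes and the study's methods, FastQC 0.11.8, cutadapt 1.18, Trimmomatic 0.39, STAR 2.6.0a (mm9), featureCounts and DESeq2 1.28.0 in R 3.6.0 were used. The deposited table holds 1 signed, log-like score per gene and library, centred by gene and not a count; the step from counts to these values is not given in the sources used here, nor whether counting used strand. No filter was applied, and 14 genes with values identical to another's were kept.

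The 4 libraries were compared with limma 3.58.1 (R 4.3.3; group as the only term, 2 residual and 3.48 prior degrees of freedom), adjusted over 12661 genes by Benjamini-Hochberg, threshold 0.05. The test was run on simulated data first. Members and lists were chosen with earlier results of these data known. Full values are given for the genes called and the 8 highest and 8 lowest differences. Others were named by role, and roles, apart from that of *Tomm34*, were assigned by known function. Symbols were matched to the GENCODE annotation of mm9 (71 of 76); *Timmdc1*, *Tomm6os*, *Timm21*, *Slc25a51* and *Timm10b* were not matched. Alternatives were a replicate block, each library left out, a robust or trended variance prior, quantile normalization, libraries set to equal spread, identical genes counted once, and a threshold of 0.1. Protein sequences were not used here. The values of 1 gene that entered the counts and medians are not reported here.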

Additional observations from a re-analysis of the deposited data

How the results depend on the processing

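The number of the 76 genes called was 5, and 0 to 7 when 1 library was left out (0 without either sham library, 1 without injury replicate 1 and 7 without injury replicate 2). Over all genes, 941 were called, 0 to 1790 with 1 library left out. Without sham replicate 1 and sham replicate 2 respectively, 11 and 24 of the 76 genes had an unadjusted limma p under 0.05. A threshold of 0.1 gave 22 of the 76 genes and 2317 of all genes. The median difference of the 76 genes was 0.30 to 0.38 with 1 library left out, and it stayed above 0 in every alternative. The median of the 5 other carriers, -0.14, changed sign without sham replicate 1 (0.07) and without injury replicate 1 (0.080), within a range of -0.31 to 0.080. The cause was not tested.

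With the replicate number as a block, 2 of the 76 genes were called, *Slc25a42* among them, both also called without it, and 684 of all genes. *Chchd2*, *Slc25a37* and *Slc25a39* were then at limma adjusted p 0.0656, 0.0679 and 0.0764. Across genes, the gap between the sham libraries and the gap between the injury libraries had a correlation of -0.094. With so few libraries, this cannot tell whether libraries with the same number were handled together. With 2 libraries a group, a lone library left in a group is assumed to vary like the other group, and depth, which is unknown, sets no limit that could be stated.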
